A study of Rattus norvegicus with 31 samples.

Results

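Liver and brown adipose tissue (BAT) of the same fasted rats were set side by side, to see which genes stand high within one tissue and low within the other. The arrays were the 5 of liver and the 5 of BAT from the low-fat diet group (L-group), 10 of the 31 arrays of the series, and they were chosen by their sample titles alone. The rats were male Wistar rats, 3 weeks old on arrival and with no genetic change, fed the L-diet, in which carbohydrate gave 65% and fat 15% of the energy, for 9 weeks and fasted for 17 h before dissection. Rats 1 to 5 each gave 1 liver and 1 BAT array, so the replicates are separate animals and the same animals in both tissues. The tissues were pieces of whole organs, so fewer cells of a type and less RNA per cell cannot be told apart. The remaining arrays were white adipose tissue (WAT) of these rats and tissues of rats on diets with more fat, of which only the high-fat H-group (4 liver and 4 BAT arrays of other rats, carbohydrate and fat at other shares of the energy) is used below.

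Hepatocytes make most of the proteins of blood plasma, clear ammonia through the urea cycle, make glucose, ketone bodies and bile acids, and oxidize drugs with cytochromes P450. Brown adipocytes hold fat in many small droplets and are packed with mitochondria, in whose inner membrane uncoupling protein 1 lets protons back without making ATP, so that oxidation of fat yields heat. Noradrenaline from sympathetic nerves turns this on through beta-adrenergic receptors and cyclic AMP. Both tissues oxidize fatty acids, and both can make them from glucose.

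The promoters of 5 genes are shown because these genes stand for the patterns described below. Gc and Fga were among the genes highest in liver and at the lowest signal in BAT, Ucp1 and Cox8b were among those with the opposite pattern, and Uqcrc1 was high in both. Each stretch is the 250 bases before the start of the gene, read on the gene's strand from RefSeq on the rat build GRCr8. Capitals mark matches to GTTAAT and ATT with any base between, the core of the site of hepatocyte nuclear factor 1 (HNF1), in Gc, to TTGCNNAA, a site of CCAAT/enhancer-binding proteins (C/EBP), in Fga and Cox8b, to TATAAA, the TATA box, searched only between 45 and 15 bases before the start, in Ucp1 and Cox8b, and to GCGCA and GCGC with any base between, the site of nuclear respiratory factor 1 (NRF1), in Uqcrc1. Both strands were searched, except for the TATA box, searched on the gene's strand alone. No match overlaps another, and a match is only a run of letters.
Gc, vitamin D-binding protein, chr14:18916005-18916254, + strand: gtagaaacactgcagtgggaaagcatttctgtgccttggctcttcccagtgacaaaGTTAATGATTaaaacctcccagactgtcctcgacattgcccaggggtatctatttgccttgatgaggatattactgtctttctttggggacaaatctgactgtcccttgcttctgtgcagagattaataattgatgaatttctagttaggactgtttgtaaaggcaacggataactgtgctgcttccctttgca
Fga, fibrinogen alpha chain, chr2:170671919-170672168, + strand: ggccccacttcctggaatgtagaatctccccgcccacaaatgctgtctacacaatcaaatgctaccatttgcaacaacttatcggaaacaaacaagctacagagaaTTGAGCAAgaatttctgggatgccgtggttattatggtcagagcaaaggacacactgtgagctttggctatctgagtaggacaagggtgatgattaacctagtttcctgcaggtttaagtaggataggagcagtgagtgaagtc
Ucp1, uncoupling protein 1, chr19:41721422-41721671, - strand: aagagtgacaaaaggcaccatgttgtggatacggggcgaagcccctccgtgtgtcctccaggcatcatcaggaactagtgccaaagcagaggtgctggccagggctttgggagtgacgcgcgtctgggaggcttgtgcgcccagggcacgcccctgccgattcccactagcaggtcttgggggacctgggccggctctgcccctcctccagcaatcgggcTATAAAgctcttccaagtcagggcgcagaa
Cox8b, a cytochrome c oxidase subunit, chr1:205408274-205408523, - strand: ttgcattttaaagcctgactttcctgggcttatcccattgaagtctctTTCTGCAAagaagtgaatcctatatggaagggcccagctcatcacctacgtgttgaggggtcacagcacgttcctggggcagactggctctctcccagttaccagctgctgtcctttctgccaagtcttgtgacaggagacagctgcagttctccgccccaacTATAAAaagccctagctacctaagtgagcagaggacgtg
Uqcrc1, a core subunit of respiratory complex III, chr8:118467973-118468222, + strand: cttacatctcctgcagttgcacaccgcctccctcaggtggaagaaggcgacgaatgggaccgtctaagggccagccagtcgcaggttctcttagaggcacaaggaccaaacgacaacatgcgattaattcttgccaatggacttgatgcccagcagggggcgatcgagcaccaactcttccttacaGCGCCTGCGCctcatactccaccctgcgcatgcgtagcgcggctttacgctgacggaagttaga

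The 2 tissues were normalized by the authors with different methods, liver with RMA and BAT with GCRMA, so their deposited levels were not compared directly. Each array was instead turned into percentiles, where 100 is the brightest and 0 the dimmest of its 31042 probe sets, and a difference between tissues is given in percentile points. An alternative below put the deposited log2 values on 1 shared scale by joint quantile normalization. It keeps the order of probe sets within each array, so a difference of 1 log2 unit there is not a fold change. Tissue cannot be told apart from the normalization, from the storage of the pieces (liver in RNAlater, BAT frozen) or from any batch of hybridization. GCRMA leaves many probe sets at a common lowest value, and 11081 to 11541 probe sets of each BAT array were tied there, at a percentile of 17.8 to 18.6. This lowest value is called the BAT floor. Probe sets within 0.1 log2 units of it, which reach at most percentile 48.9, are called near the floor. A probe set was called when its limma adjusted p was under 0.05 and its mean difference was 25 points or more, since 87.2% of all probe sets passed the adjusted p alone. A gene was read from the probe set with the highest mean percentile, and 14217 genes had one.

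By this rule 1380 genes were called higher in liver (9.71% of all genes) and 1071 higher in BAT (7.53%). The 5 liver and 5 BAT arrays did not overlap for 1375 and 1071 of them, beside 37.8% and 44.5% of all genes that were higher in liver or in BAT with no overlap. When the percentiles of both tissues were raised to 48.9, the share of probe sets at or near the BAT floor, so that order below it could not count, 577 of these genes (41.8%) were still called higher in liver and 427 (39.9%) higher in BAT, which is 4.06% and 3% of all genes. Among genes at percentile 95 or more in their tissue, 1166 in liver and 1189 in BAT, 591 were at 95 or more in both, which is 50.7% of the liver and 49.7% of the BAT genes. At 99 or more, 55 genes were shared among 222 in liver and 218 in BAT. In all, 4504 genes (31.7%) differed by less than 5 points.

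**Figure D1:**
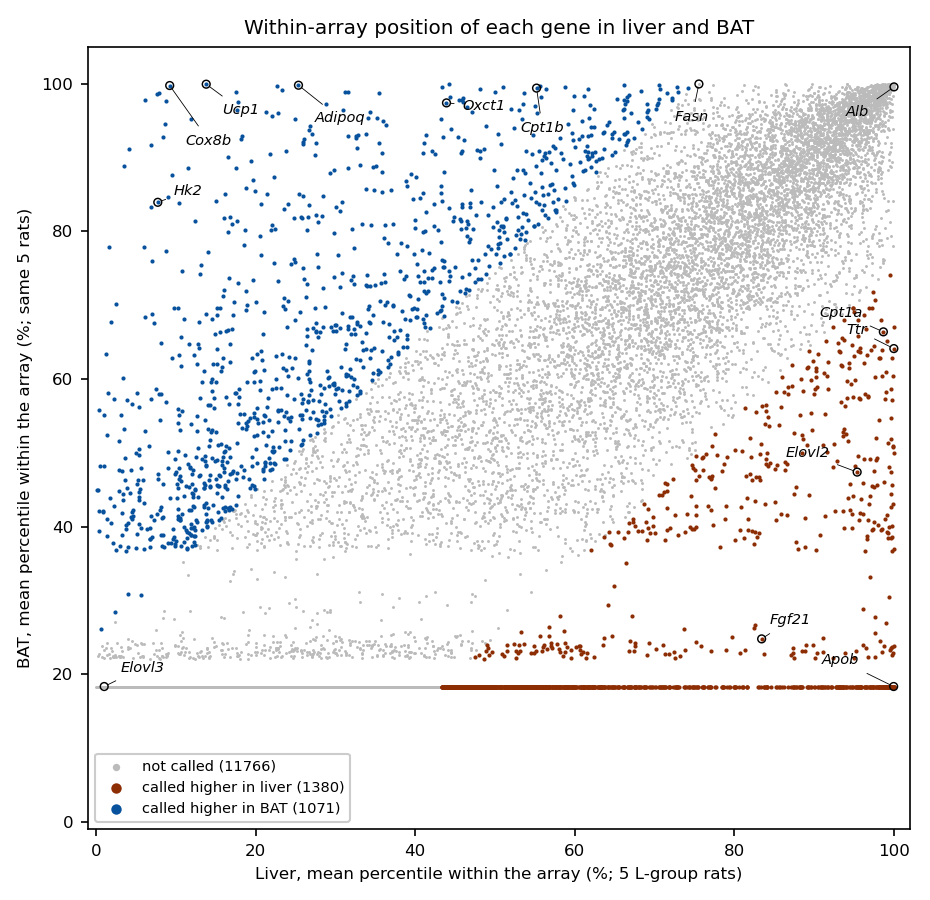
Mean percentile of each of 14217 genes over the 5 liver arrays (horizontal axis, %) and the 5 BAT arrays (vertical axis, %), with genes called higher in liver in brown, higher in BAT in blue and the rest in grey, and 14 genes circled and named. The horizontal line of points at 18.3 is the BAT floor, and the genes named at the upper left, such as Ucp1 at 13.8 in liver and 99.96 in BAT, are far above the diagonal.

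Within a tissue the rats were alike. Rank correlations over probe sets were 0.992 to 0.994 among livers and 0.984 to 0.992 among BAT arrays, against 0.723 to 0.733 between a liver and a BAT array. The BAT array of rat 4 stood somewhat apart from the other BAT arrays, at 0.984 to 0.985. With all rats there were 3057 probe sets called higher in liver (9.85%) and 2578 probe sets called higher in BAT (8.3%), and without rat 4 there were 3065 and 2560.

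The defining markers of each tissue followed the labels, with exceptions. Of 8 hepatocyte markers 6 were called higher in liver, beside 9.71% of all genes. On all 5 BAT arrays 5 of the 8 were at or near the BAT floor. The summary of these 8 markers, the mean percentile of an array, was 99.7 to 99.8 in liver and 47.1 to 47.9 in BAT. Alb, serum albumin, was not called, with a mean of 99.998 in liver and 99.6 in BAT, where the 5 rats were at 99.5 to 99.7. Cyp2e1, the ethanol-oxidizing P450, was also high in BAT, at 78.0 against 99.9. Of 7 brown adipocyte markers 5 were called higher in BAT, beside 7.53% of all genes. The array means of the 7 were 75.4 to 77.0 in BAT and 21.8 to 25.8 in liver. The 2 others were Cidea, a lipid droplet protein that was at 86.3 in liver and 100.0 in BAT, and Elovl3, an elongase known from cold-exposed mouse brown fat, which was at the BAT floor on every BAT array and at 1.0 in liver. Elovl3 had 1 probe set, and whether it read this gene could not be settled. Of 6 adipocyte markers 5 were called higher in BAT, and the sixth, Cidec, was at 93.9 in liver and 99.3 in BAT.

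Other cell types of the dissected pieces differed too. Of 10 defining skeletal muscle markers none was called, and 9 were at or near the BAT floor, while Myh1, a fast myosin heavy chain, was at 97.0 in liver and 99.7 in BAT. All 5 probe sets of Myh1 were at 92.6 or more in liver, and whether they read this gene could not be settled. In the longer list of 20 muscle genes, Myl1 (6.9 in liver and 83.4 in BAT), Mb, myoglobin (11.7 and 64.8), and Myh7 (7.3 and 40.8) were called higher in BAT, the last 2 not with floored percentiles, and Tnni1 was called higher in liver, also not with floored percentiles. The resident macrophages of the liver sinusoid were marked by Clec4f, at 95.5 to 96.8 in liver, and Cd5l, at 93.4, both at the BAT floor. All 5 genes of the sinusoid and Kupffer cell list were called higher in liver, beside 9.71% of all genes. Among 10 endothelial genes 3 were called higher in BAT, among 8 smooth muscle genes 6, and among 15 fibroblast and matrix genes 7, Postn and Lum among them, beside 7.53% of all genes. All 3 measured lymphocyte markers and both mesothelial markers were at or near the BAT floor. The part of these cells in the differences below was not tested.

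Among called genes at percentile 95 or more in liver, the 15 with the largest difference were mostly of secreted proteins. All 15 were at the BAT floor on all 5 BAT arrays. They were Gc, Ambp (the precursor of alpha-1-microglobulin), the fibrinogen chains Fgg, Fga and Fgb, Apob, Apoc1 and Apoa2 of lipoproteins, the complement component C3, Fabp1 (the fatty acid binding protein of liver), the cytochromes Cyp2c7 and Cyp3a2, Ahsg (fetuin-A), Serpina3l and Itih4. For Apob, the structural protein of very low density lipoprotein, the mean was 99.95 in liver and 18.3 in BAT. The difference was 81.6 points (SE 0.267, limma adjusted p = 1.39e-17), and 51.0 points with floored percentiles. Since BAT was at its floor for all 15, the order among them rests on liver alone and spans only 81.5 to 81.7 points. One of the other probe sets of Fgb was called in the opposite direction.

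Among the lists of plasma protein genes, that of coagulation was the most complete. All 14 measured coagulation genes were called higher in liver, with a median of 99.5 in liver and 18.3 in BAT, as were 15 of 18 carriers and protease inhibitors and 11 of 15 complement genes, against 9.71% of all genes. The 3 carriers not called were Alb, A1bg, which was at 18.6 in liver, and Rbp4. Rbp4 carries retinol in plasma and is also known as an adipokine, and it was at 99.9 in liver and at 99.1 to 99.4 in the 5 BAT arrays. Ttr, the transthyretin that binds this protein, was instead at 99.98 in every liver and at 62.6, 63.5, 63.7, 63.9 and 66.9 in the BAT of rats 1 to 5, a difference of 35.9 points (SE 0.703, adjusted p = 9.71e-12). The complement genes not called were C1r and C1s (98.6 and 99.3 in liver, 76.2 and 88.3 in BAT), C6 and Masp2.

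Of 16 genes of lipoproteins 14 were called higher in liver (87.5%, beside 9.71% of all genes). Mttp, which loads lipid on Apob, was at 97.9 in liver and 40.2 in BAT, and Lcat, which esterifies cholesterol in plasma, at 99.3 and 39.1. The exceptions were Apoe, at 99.9 and 93.9, and Pltp, the phospholipid transfer protein, at 78.3 in liver and 87.6 in BAT.

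Transcription factors of hepatocytes differed in the same direction, though not all. Of 15 genes 10 were called higher in liver (66.7%, beside 9.71% of all genes). Foxa1, Foxa2, Foxa3, Onecut1, Prox1, Nr1i2, Nr1i3 and Creb3l3 were at the BAT floor. Hnf4a, the nuclear receptor that governs many hepatocyte genes, was at 98.7 to 99.0 in liver and at 39.9 to 41.6 in BAT, near the BAT floor. The arrays did not overlap, and the difference was 57.9 points (SE 0.370, limma adjusted p = 2.16e-15). Cebpa, which acts in both hepatocytes and adipocytes, was at 96.2 in liver and 98.8 in BAT. Ppara, the nuclear receptor for fatty acids, was at 45.2 in liver and 61.4 in BAT, and it was not called.

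Disposal of nitrogen and of amino acids was carried by genes high in liver. In the urea cycle list 7 of 11 genes were called higher in liver (63.6%, beside 9.71% of all genes). Cps1, the entry enzyme, was at 99.7 in liver and at the BAT floor (difference 81.4 points, SE 0.267, limma adjusted p = 1.39e-17). That SE holds no spread of Cps1 in BAT, and the difference was 50.8 points with floored percentiles. Otc, Ass1, Arg1 and Nags were at the BAT floor as well. Glul, which makes glutamine from ammonia, was at 96.4 in liver and 98.8 in BAT. Of 27 genes of amino acid breakdown 20 were called higher in liver (74.1%), among them Tat, Tdo2, Hpd, Cth and Kynu. None was called higher in BAT, beside 7.53% of all genes. Cdo1, the enzyme that oxidizes cysteine, was instead at 99.9 in liver and 99.8 in BAT, and Fah, the last enzyme of tyrosine breakdown, at 98.5 and 98.2.

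Bile acid and drug genes were likewise liver genes. Of 24 measured cytochromes P450 of families 1 to 4, 22 were called higher in liver (91.7%, beside 9.71% of all genes). The exceptions were Cyp2e1 and Cyp4v3. With floored percentiles 21 of 24 were called, beside 4.06% of all genes. Of 18 bile acid genes 13 were called higher in liver (72.2%), and 12 with floored percentiles, beside the same shares of all genes. Baat, Slc27a5 and Slc10a1, which conjugate, activate and import bile acids, were at 99.4 or more in every liver. Cyp7a1, whose product opens the classical route from cholesterol to bile acids, varied widely among the livers. It was at 69.6, 45.8, 57.5, 85.7 and 84.9 in the livers of rats 1 to 5 and at the BAT floor in all 5 BAT arrays, a difference of 50.4 points (SE 7.13, adjusted p = 6.97e-05). The groups did not overlap, but with floored percentiles Cyp7a1 was not called.

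Glucose genes were split. Slc2a2, the glucose transporter of hepatocytes, Fbp1 of gluconeogenesis, Gckr, the regulator of glucokinase, and Pklr, the pyruvate kinase of liver, were called higher in liver and were at the BAT floor. These 4 were 33.3% of the 12 measured genes of gluconeogenesis and glycogen, beside 9.71% of all genes. The other 8 of the 12 were not called. Pck1, which makes phosphoenolpyruvate for glucose in liver and for glycerol in fat, was at 99.8 in every liver and at 99.9 or more in every BAT array. Pygl and Gys2, the glycogen phosphorylase and synthase of liver, were at 98.6 and 93.6 in BAT, against 97.3 and 86.5 in liver.

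On the BAT side, Ucp1 was at 13.8, 14.4, 16.2, 11.6 and 13.1 in the livers and at 99.9 or more in the BAT of all 5 rats. No pair of arrays overlapped, and the difference was 86.1 points in favour of BAT (SE 0.735, adjusted p = 2.1e-14). In WAT of the same rats, which the authors normalized by another method, its mean percentile was 17.9. Cox8b, the cytochrome oxidase subunit of muscle and brown fat, was at 7.3 to 12.8 in liver and at 99.7 to 99.8 in BAT, a difference of 90.5 points (SE 0.932, adjusted p = 8.78e-14), and at 20.3 in WAT. Among called genes at percentile 95 or more in BAT, the others of the 15 with the largest difference were Slc22a3, a transporter that takes up catecholamines, Slc24a3, a calcium exchanger, Arxes1, Postn, Ndn, S100b, the retinoid binding protein Rbp7, Mme, Prkar2b, Aqp7, Cxcl14, Adipoq and Pllp. Among these 15 Slc22a3 differed most, at 5.0 to 8.7 in liver and 97.4 to 98.4 in BAT. In WAT it was at 90.0, and Arxes1, Postn, S100b, Rbp7, Prkar2b, Aqp7 and Adipoq were at 98 or more.

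Of 26 measured thermogenesis genes 14 were called higher in BAT (53.8%, beside 7.53% of all genes). Of the others 1 was called higher in liver (3.85%, beside 9.71% of all genes) and 11 were not called. With floored percentiles 11 were called higher in BAT, beside 3% of all genes. The median difference was 29.8 points in favour of BAT against 0.76 points over all genes. Dio2, the deiodinase that makes active thyroid hormone inside the cell, was at 18.7, 17.8, 19.0, 14.4 and 24.2 in liver and at 88.5, 91.9, 82.9, 87.4 and 79.1 in BAT. Adrb3, the beta-3 adrenergic receptor, was at 42.5 to 46.4 in liver and 97.8 to 98.6 in BAT. Neither gene overlapped between the tissues. Ppargc1a, a coactivator of mitochondrial genes, was at 30.6 to 48.8 in liver and 81.7 to 94.3 in BAT (48.4 points in favour of BAT, SE 3.47, adjusted p = 2.9e-07), and Kcnk3, Fabp3, Esrra, Ucp3, Cpt1b and Ppargc1b were called in the same direction. Prdm16 and Ebf2, regulators of brown fat identity, were at 69.7 and 63.4 in BAT and at 9.8 and 1.2 in liver, and with floored percentiles these 2 and Cox7a1 were not called. The gene called higher in liver was Fgf21, a fasting hormone of liver. It was at 76.7, 89.8, 86.4, 82.9 and 81.3 in liver and at the BAT floor in rats 1, 2, 3 and 5, but at 50.1 in the BAT of rat 4.

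The receptor and cyclic AMP genes were mixed. Of 19 genes 5 were called higher in BAT (26.3%, beside 7.53% of all genes), and 3 with floored percentiles, beside 3% of all genes. The 5 were Adrb3, Adcy3, Adrb1, Adra1a and Prkar2b, a regulatory subunit of protein kinase A. Prkar2b was at 22.6 in liver and 99.8 in BAT. Adra1b, the alpha-1B receptor known for glycogen breakdown in liver, and Gcgr, the glucagon receptor, were called higher in liver, the first at 90.0 and at the BAT floor, the second at 89.3 against 63.8. These 2 liver calls were 10.5% of the list, near the 9.71% of all genes. Without rat 1 the difference of Gcgr was 24.8 points, under the 25 of the rule.

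Genes of adipocytes at large accounted for as many calls as those of heat. Of 26 genes 14 were called higher in BAT (53.8%, beside 7.53% of all genes) and none higher in liver. With floored percentiles 13 were called higher in BAT, beside 3% of all genes. Adipoq, the hormone adiponectin, was at 22.7 to 28.8 in liver and at 99.8 in all 5 BAT arrays (74.4 points in favour of BAT, SE 0.960, adjusted p = 4.86e-13). Droplet coat proteins Plin1, Plin4 and Plin5, the lipases Lipe and Pnpla2, the fatty acid uptake genes Lpl, Gpihbp1 and Cd36, and Pparg, the master regulator of adipocytes, were called in the same direction. One of the other probe sets of Lipe was called in the opposite direction, and with its probe sets averaged Lipe was not called. Plin2, the droplet protein of many cells, was at 98.4 in liver and 99.2 in BAT, and Car3, a carbonic anhydrase abundant in fat, was at 99.9 in both. Lep, leptin, was at 70.4 in BAT, 20.1 in liver and 92.3 in WAT, and it was not called with floored percentiles.

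**Figure D2:**
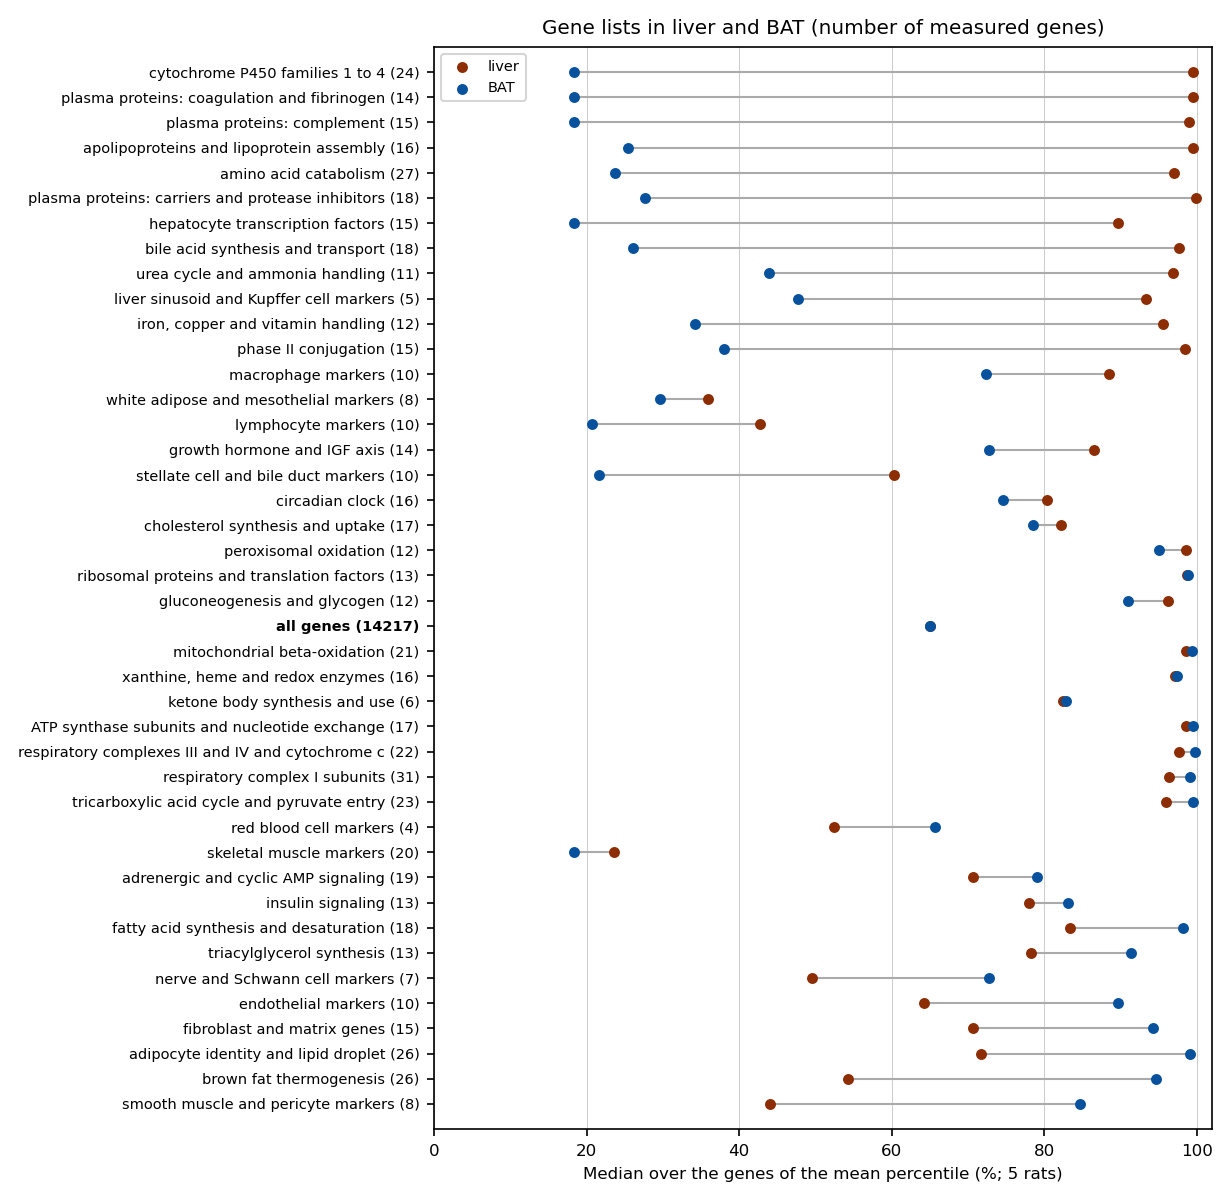
Median over the measured genes of each list of the mean percentile (horizontal axis, %) in liver (brown) and BAT (blue), for 41 lists and for all genes (bold), ordered by the median difference, with the number of measured genes in brackets. Plasma protein and cytochrome P450 lists join 99 in liver to 18.3 to 27.7 in BAT, the brown fat and adipocyte lists are apart the other way, and the mitochondrial lists sit together above 95.

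Genes of one metabolic step often exchanged places. Of 31 pairs, in which one gene was set down as the liver form and the other as the form of muscle, fat or another tissue, both genes were measured in 25, and in 9 pairs the first was called higher in liver and the second higher in BAT. Fabp1 and Fabp4, Slc2a2 and Slc2a4, Lipc and Lpl, Aqp9 and Aqp7, Slc27a5 and Slc27a1, Dio1 and Dio2, Cpt1a and Cpt1b, Car5a and Car5b, and Bcat1 and Bcat2 were such pairs, though Bcat1 is not known as a liver gene and was not called with floored percentiles. Cpt1a, the outer gate of fatty acid entry into mitochondria in liver, was at 98.3 to 99.0 in liver and 64.8 to 67.3 in BAT. Its counterpart Cpt1b was at 49.4 to 63.5 in liver and at 99.4 to 99.5 in BAT, 44.2 points in favour of BAT (SE 2.12, adjusted p = 1.07e-08). Slc2a4, the insulin-sensitive glucose transporter, was at 33.7 to 39.7 in liver and 90.5 to 90.8 in BAT. Lipc, the lipase of liver vessels, was at 99.0 to 99.1 in liver. In BAT it was near the floor in rats 3 and 5 (38.5 and 41.4) and at the floor in the other 3.

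In 8 pairs only the gene set down for muscle, fat or another tissue was called, higher in BAT. The gene set down for liver had a high rank in both tissues or a difference under 25 points. Examples were Cox8b beside Cox8a (98.8 in liver and 99.95 to 99.96 in BAT), Slc25a4 beside Slc25a5, Ldhb beside Ldha, and Gys1 beside Gys2. Ldha is also known from muscle, so that pair does not set a liver form against a muscle form. In 3 pairs only the liver gene was called, Arg1 beside Arg2, Mat1a beside Mat2a and Elovl2 beside Elovl3. Both phosphofructokinases Pfkl and Pfkm were called higher in BAT, both alcohol dehydrogenases Adh1c and Adh7 higher in liver, and neither gene of 3 pairs was called. Hk2, a hexokinase of muscle and fat, was at 5.1 to 12.4 in liver and 82.9 to 85.0 in BAT, with its liver counterpart not measured.

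**Figure D3:**
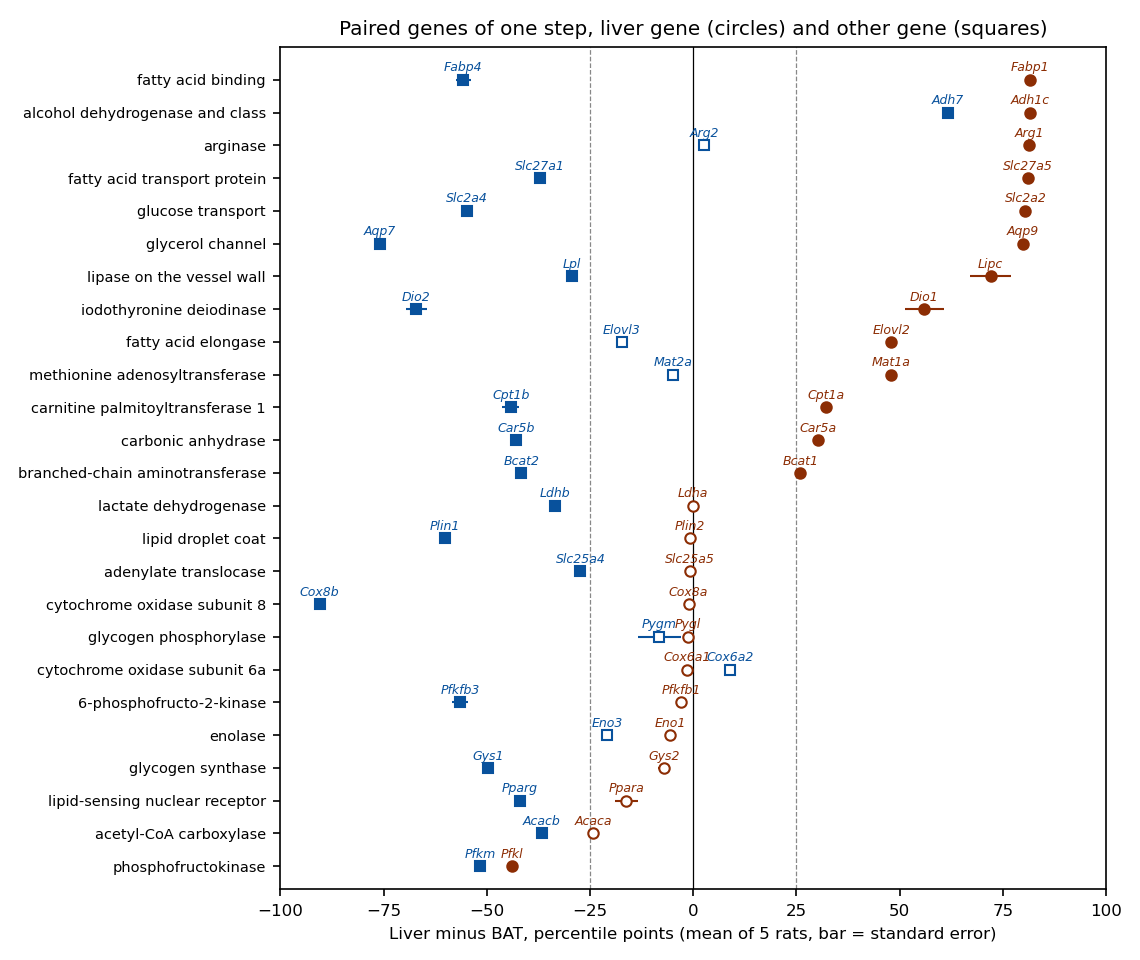
Liver minus BAT in percentile points (horizontal axis, mean of 5 rats, bars 1 standard error) for both genes of 25 steps, with the gene set down for liver as a circle and the other as a square, filled where called, and dashed lines at 25 points either way. In 9 steps the circle is filled at the right and the square at the left, as for Fabp1 and Fabp4.

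Most mitochondrial genes were near the top of both tissues, and a gene above percentile 75 in both cannot differ by 25 points. None of the 31 measured complex I subunits was called, yet for all 31 every BAT array was higher than every liver array, beside 44.5% of all genes. The median complex I subunit was at 96.4 in liver and 99.2 in BAT. Every BAT array was also above every liver array for 21 of 22 genes of complexes III and IV, 14 of 17 of ATP synthase and nucleotide exchange, 22 of 23 of the tricarboxylic acid cycle, and 18 of 21 of mitochondrial beta-oxidation. After joint quantile normalization of the deposited log2 values of the 10 arrays, where a gene was called at an adjusted p under 0.05 and a difference of 1 on the log2 scale, 27 of 31 complex I subunits were called higher in BAT and none higher in liver, beside 21.1% of all genes. That scale rests on the same within-array orders as the percentiles and is not separate evidence. Uqcrc1, whose promoter is shown above, was at 97.1 to 97.2 in liver and 99.8 to 99.9 in BAT. The difference on that scale was 3.09 in favour of BAT (SE 0.051, limma adjusted p = 5.46e-12).

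Some mitochondrial genes were lower in liver and were called higher in BAT, 3 of 22 in complexes III and IV (Cox8b, Cox7a1 and Cox4i2), 1 of 17 in ATP synthase and nucleotide exchange (Slc25a4, 71.5 in liver and 98.8 in BAT) and 1 of 23 in the tricarboxylic acid cycle, of which 14 were at 95 or more in liver. The shares were 13.6%, 5.88% and 4.35%, the last 2 under the 7.53% of all genes. Cox4i2 was at 14.3 in liver and near the BAT floor, and it and Cox7a1 were not called with floored percentiles. Idh3a, a subunit of the citrate cycle's NAD-dependent dehydrogenase, was at 56.5 in liver and 99.3 in BAT and was called. Cs, citrate synthase, was at 81.2 and 99.9, and it was not called. Cpt1a was the only gene of beta-oxidation called higher in liver. Acsl1, which activates fatty acids, was at 99.8 in both tissues, Eci1 at 99.6 and 99.7, and Atp5pf at 97.0 in both, and Mpc2 of the mitochondrial pyruvate carrier was at 99.3 in liver and 98.7 in BAT.

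Of the 18 measured genes of fatty acid synthesis and desaturation, 14 had a higher mean percentile in BAT, with a median of 83.4 in liver and 98.2 in BAT, and 4 were at 95 or more in liver against 11 in BAT. Fasn, fatty acid synthase, was at 74.7 to 76.3 in liver and at 99.98 or more in BAT, a difference of 24.4 points in favour of BAT (SE 0.378, adjusted p = 1.77e-12), just under the 25 points of the rule. Acaca, which makes malonyl-CoA, was just under it as well, at 75.3 and 99.6, and Elovl6, which lengthens palmitate, was called, at 42.9 to 52.5 and 97.5 to 98.5. By the rule 2 of the 18 genes were called in each direction (11.1%), near the 9.71% and 7.53% of all genes. After joint quantile normalization 13 were called higher in BAT, beside 21.1% of all genes, and 3 higher in liver, a share near the 17.7% of all genes. The 3 were Elovl2, an elongase, and the desaturases Fads1 and Fads2. Fads2 was at 84.8 to 91.9 in liver and at the BAT floor in 4 rats, with 46.2, near that floor, in the BAT of rat 3. In triacylglycerol synthesis Gpd2, Gpam, Agpat1 and Mogat1 were called higher in BAT, 30.8% of the 13 genes beside 7.53% of all genes. Mogat1 was not called with floored percentiles, and none of the 13 genes was called higher in liver. The liver minus BAT difference of Gpd2 was -24.5 points without the liver array of rat 3 and -24.4 without that of rat 4, and that of Gpam was -24.9 without the liver array of rat 4.

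Of 6 measured ketone body genes 1 was called in each direction (16.7%) and 4 were not called. The shares of all genes were 9.71% in liver and 7.53% in BAT. Of the 6 genes 5 had a higher mean percentile in BAT. Bdh1, which makes 3-hydroxybutyrate, was called higher in liver, at 97.0 against 33.2, with all 5 BAT arrays at or near the BAT floor. Oxct1, which lets tissues outside the liver burn ketone bodies, was at 42.7 to 44.8 in liver and 96.5 to 98.2 in BAT (53.5 points in favour of BAT, SE 0.477, adjusted p = 2.98e-14). The genes not called were Acat1 (98.4 in liver and 99.6 in BAT), Bdh2 (67.9 and 68.4), and the transporters Slc16a1 (97.5 and 98.6) and Slc16a6 (47.9 and 58.7).

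By the rule of 25 points some lists held no call at all. None of 16 clock genes, 13 insulin signaling genes, 17 cholesterol synthesis and uptake genes and 13 ribosomal protein and translation factor genes was called in either direction by limma at 25 points. Medians of the ribosomal list were 98.8 in liver and 98.9 in BAT. After joint quantile normalization 3 clock genes, Nr1d2, Hlf and Rora, were called higher in liver, 3 of 16 beside 17.7% of all genes. On that scale 5 of the 17 cholesterol genes were called higher in liver and 6 higher in BAT. For insulin signaling these were 2 and 5 of 13, and for the ribosomal list 1 and 0 of 13, beside 17.7% and 21.1% of all genes. Bmal1, an activator of the clock, was at 66.1, 64.5, 43.3, 43.9 and 44.7 in the livers of rats 1 to 5 and at 46.8, 63.3, 46.7, 49.8 and 18.4 in their BAT, so the tissues overlapped.

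The promoters of the groups differed in letters as well as in the genes' ranks. RefSeq held a promoter for 37 of the 47 plasma protein genes and for 62 of the 70 genes of the respiratory chain and ATP synthase lists. In the stretch from 250 bases before to 50 after the start, the C/EBP letters were present in 18 of the 37 plasma protein promoters (48.6%), in 7 of the 62 respiratory ones (11.3%), in 9.15% of 11733 measured genes and in 10.5% of all 27457 promoters. The HNF1 core was present in 3 of the 37 (8.11%) and in none of the 62, beside 0.29% of measured genes and 0.346% of all promoters. The NRF1 letters were present in 11 of the 62 respiratory promoters (17.7%) and in none of the 37, beside 8.49% of measured genes and 4.71% of all. The respiratory promoters had a median of 20 CpG, the plasma protein ones 4, and measured genes 19. Among genes called higher with a percentile of 95 or more, 204 liver promoters had a median of 4 CpG and 63 BAT promoters 15. These shares are descriptions of the lists, and no test was made of them.

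Other rats gave most of the same calls. In 4 livers and 4 BAT samples of the H-group, on a diet with more fat and less carbohydrate, 1308 of the 1380 liver calls (94.8%) and 977 of the 1071 BAT calls (91.2%) were made again, and all 1380 and 1071 had the same sign. They were 93.2% and 92.3% of the 1403 and 1059 H-group calls, which made up 9.87% and 7.45% of all genes. Skeletal muscle genes differed between these BAT arrays. The mean percentile of the 20 muscle genes was 57.5 and 63.8 in the BAT of rats 13 and 15, against 33.7 and 34.8 in that of rats 12 and 16 and 32.0 to 34.2 in the L-group. Acta1, the actin of skeletal muscle, was at 86.1 and 93.6 in rats 13 and 15 and at the BAT floor in rats 12 and 16 and in all 5 L-group rats, and Myh4, a fast myosin heavy chain, was at 69.9 and 77.1 and at the floor in the same other rats. In the H-group 7 of the 20 muscle genes were called higher in BAT, against 3 in the L-group and 3 in the H-group without the BAT arrays of rats 13 and 15. Without those 2 arrays 1288 of the 1380 liver calls (93.3%) and 966 of the 1071 BAT calls (90.2%) were made again, 91.7% and 90.4% of 1405 and 1069 H-group calls, which were 9.88% and 7.52% of all genes. The H-group arrays were normalized together with those of the L-group within each tissue, so the methods were shared. Whether a difference between tissues depended on the diet was tested as an interaction, and 21 of 31042 probe sets (0.0677%) passed an adjusted p under 0.05, or 19 without those 2 arrays. Fads1, the delta-5 desaturase, was at 96.1 in liver and 83.6 in BAT of the L-group and at 97.8 and 74.4 in the H-group, so that the tissues were 10.9 points further apart (SE 1.65, adjusted p = 0.0295). Slc25a10, the dicarboxylate carrier, went from 86.3 in liver and 89.1 in BAT to 87.4 and 80.9 (9.30 points, SE 1.57, adjusted p = 0.0372). Both probe sets of Prps2, which makes the sugar of nucleotides, passed as well. Without the BAT arrays of rats 13 and 15, Fads1 (9.45 points, adjusted p = 0.144), Slc25a10 (7.27 points, adjusted p = 0.165) and 1 probe set of Prps2 (12.4 points, adjusted p = 0.144) no longer passed in limma.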

How the data were processed

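RNA of 5 livers and 5 BAT samples of the L-group (TRIzol and RNeasy, 3′ IVT Express kit) was measured on Affymetrix rat expression arrays, 1 per rat and tissue. The authors deposited log2 values, made with RMA for liver and GCRMA for BAT, each tissue by itself. Values ran from 1.91 to 14.3 in liver and from 2.29 to 15.7 in BAT. After 57 control probe sets were left out, each array was ranked (ties averaged) into percentiles. The number of arrays limits the precision. The median SD of a probe set was 1.62 points in liver and 0.419 in BAT. Of the probe sets 20826 carry 1 gene symbol, 436 several and 9780 none, and 4525 genes had several probe sets. The main fit was limma 3.58.1 (R 4.3.3) on liver L against BAT L with Benjamini-Hochberg adjustment over all probe sets. The p-values compare 5 and 5 samples of the same animals. Rats pair the samples by the labels, and residuals of the same rat correlated at 0.029 to 0.047, those of different rats at -0.044 to 0.027. In simulated data of this comparison with 31042 probe sets, shifts were added only to probe sets of low to middle percentile. By the adjusted p alone, without the minimum of 25 points, 47 of 50 shifts of 25 points and 50 of 50 of 40 points passed. So did 1082 probe sets without a shift, none of them with 25 points.

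Members, 41 gene lists (700 genes, 614 measured), 31 pairs and markers were chosen with earlier results of these data known. Genes named were the 15 with the largest difference each way among called, not overlapping genes at percentile 95 or more, up to 4 each way per list, both genes of pairs, defining markers and the 10 list genes at 95 or more in both tissues that differed least. Other list genes are named as examples or exceptions, chosen after their values were seen. Alternatives were floored percentiles, joint quantile normalization, normal scores, probe sets at percentile 50 or more, minima of 10 and 40 points, an adjusted p of 0.01, rat as a replicate block, a trended and robust fit, the gene's probe sets averaged, and each rat or array left out. The WAT values were used as percentiles for reference. Promoters came from RefSeq (GRCr8), and Python 3.11.15 was used.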

Additional observations from a re-analysis of the deposited data

Results flagged for a closer look

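Among 5 rats a value was looked at again when its gap to the nearest of the others was more than 0.71 of the range of the group. This held for 30 of 432 groups of 5 arrays, over 216 named genes and both tissues. Chance gives about 1 in 20 only for independent, normally distributed values. Genes at the floor on all 5 BAT arrays repeat the same tied percentiles, which could not be flagged, so the count is not compared with that rate. None of the 216 genes had a difference between tissues that differed between the L-group and the H-group in the limma interaction. The 21 probe sets that passed lay outside those genes and went in both directions, with liver minus BAT less positive in the H-group for Eml4 and Zdhhc2 among others. Named here from the 21 are Fads1 (10.9 points), Slc25a10 (9.30 points) and both probe sets of Prps2 (8.81 and 12.4 points), all 4 more positive in the H-group. Of these 4 probe sets only the first of Prps2 passed without the BAT arrays of H-group rats 13 and 15 (adjusted p = 0.0212).

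In BAT 5 genes were high or low by more than 15 points in a single rat because the other arrays, or that array, lay at the BAT floor. Fgf21 was at 50.1 in the BAT of rat 4, Fads2 at 46.2 and Reln at 51.4 in that of rat 3, each against 17.8 to 18.6 in the others. Bdh1 in rat 4, at 17.8, and Pygm in rat 2, at 18.6, lay at the floor against 36.8 to 37.4 and 46.4 to 47.3. These higher values of Bdh1 and Pygm, and that of Fads2 in rat 3, were also near the floor.

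Rat 4 was also apart in BAT for Car5a (46.1), Hnf4a (39.9), Mat1a (50.8) and Serpina1 (45.9), all but Mat1a near the BAT floor. Rat 1 was apart in BAT for Abcd2 (84.9), Aqp7 (99.0), Car3 (99.7), Hbb (99.2) and Mogat1 (46.2), rat 2 for Cox7a1 (57.5) and rat 5 for C1qb (59.8). In liver rat 2 was apart for Ppara, at 33.7 against 46.7 to 49.5, and for Epcam (68.1) and Fads2 (84.8). Rat 3 was apart for Ugt2b1, at 85.4 against 95.2 to 98.3, and for Bcat2 (37.7), Fgg (99.947), Gc (99.992), Serpinc1 (99.863) and Slc24a3 (12.9). Rat 4 was apart in liver for Cnn1 (23.7), and rat 5 for Adh1c (99.837), Adh7 (83.3), C1qa (92.8) and Postn (12.4). For Fgg, Gc, Serpinc1 and Adh1c these gaps were less than 0.03 points wide.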

How the results depend on the processing

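The counts depended most on how the BAT floor and the size of the difference were treated. Against 3057 probe sets called higher in liver and 2578 higher in BAT, floored percentiles gave 907 and 759, joint quantile normalization with 1 log2 unit 4671 and 5183, a minimum of 10 points 7646 and 8631, and one of 40 points 1159 and 802. In the H-group rats floored percentiles gave 938 and 764, against 3073 and 2601. Leaving out 1 rat or 1 array gave 3052 to 3080 and 2550 to 2603. The replicate block of the rats gave 3057 and 2578 and changed no other call. For the tissue by diet interaction 21 probe sets passed, 22 with rat as a random replicate block and 35 with floored percentiles, an alternative chosen after seeing the data. Leaving out the BAT arrays of H-group rats 13 and 15, also chosen after seeing the data, gave 3090 and 2689 H-group calls and 19 interactions. The cause of these changes was not tested, except that floored percentiles by construction drop differences below the BAT floor.

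Of the 162 named genes that were called, 139 kept the call with floored percentiles, 153 with joint quantile normalization, 156 with the probe sets of a gene averaged and 123 with 40 points. Direction turned with averaged probe sets only in 5 named genes that were not called, in points of liver minus BAT Eci1 (8.608), Eef2 (13.540), Pygm (2.052), Rpl7 (-7.657) and Tnnt3 (-0.068). With a rat or array left out it turned in 4 uncalled genes that hardly differed, Atp5pf (-0.083 to 0.027), Cd3d (-0.544 to 1.383), Eef2 (-0.053 to 0.039) and Rpl7 (-0.017 to 0.047). The precision was limited by 5 rats, and below the BAT floor no order could be seen in BAT.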

Other observations

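Genes outside the lists, chosen after their values were seen, were also far apart. Phgdh and Psat1, which make serine, and Asns, which makes asparagine, were high in BAT and low in liver. Asns was at 22.8 in liver and 96.0 in BAT (73.2 points in favour of BAT), Phgdh at 34.4 and 96.2, and Psat1 at 43.2 and 95.2, with no overlap between the arrays for any of them. In WAT of the same rats they were at 95.8, 92.3 and 97.8. Slc1a5, a transporter of glutamine and other neutral amino acids, was at 45.5 in liver and 97.9 in BAT. Mybpc2, known from fast skeletal muscle, was at 28.8 in liver, 97.3 in BAT and 28.2 in WAT.

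Some genes varied widely among the 5 rats. Atf3, an immediate early gene, was among the 20 most variable genes with a mean of 48.9 or more in both tissues, at 56.4 to 84.0 in liver and 52.6 to 74.5 in BAT. In BAT the immediate early genes Fos, Fosb and Nr4a1 were among them. Nr4a1 was at 96.4, 85.8, 69.6, 76.7 and 72.4 in the BAT of rats 1 to 5, and Fosb at 67.8, 83.5, 60.4, 71.9 and 64.3. In liver Clca2 (49.2 to 87.7), Cdh17 (64.1 to 95.7), Cyp7a1 (45.8 to 85.7) and the clock genes Npas2 and Bmal1 were among them. The SD of Bmal1 was 11.7 points in liver and 16.4 in BAT. In BAT rat 5 was at the BAT floor (18.4) and rats 1 and 3 were near it (46.8 and 46.7), so the 2 spreads cannot be compared.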
